A study of Mus musculus with 18 samples.

Results

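The comparison described here set Mettl3 KO1 against Mettl3 KO2, a pair of mouse embryonic stem cell lines that the labels give as knockouts of the same gene. Its members are the 4 nuclear RNA libraries of these lines, 2 per line, of 18 libraries in the series, taken by the line named in each library's label. The 2 Mettl3 control libraries entered no test between the lines and are given beside the lines. All 6 libraries came from C57BL/6 cells grown in serum with LIF, 3 µM CHIR99021 (an inhibitor of the kinase GSK3) and 1 µM PD0325901 (an inhibitor of the kinase MEK), and were collected at 0 h of actinomycin D, that is, without the drug. The labels do not say how either line was made, whether it was grown from a single cell, or which part of Mettl3 was targeted. Each line is 1 line, and nothing in the labels says that its libraries came from separate cultures, so every p-value below measures only the spread between libraries of a line.

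METTL3 is the catalytic subunit of the enzyme complex that writes N6-methyladenosine (m6A) on RNA while it is being made. In stem cells m6A marks many transcripts for decay, and nuclear m6A readers act on chromatin-associated RNAs. The comparison asks how far lines that are knockouts of 1 gene differ from each other, without the control that they share.

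Gene reads numbered 30989044 and 23302028 in KO1, 24895122 and 22714684 in KO2, and 20444256 and 22879403 in the control. Replicates of a line were close: the biological coefficient of variation over the 4 libraries was 3.81%. The pluripotency genes Pou5f1, Sox2 and Nanog were present in all 6 libraries, with Pou5f1 at 299.5 and 310 CPM in KO1, 188 and 184 CPM in KO2, and 252 and 240.3 CPM in the control. Levels below are CPM, that is, reads scaled to library size and TMM factor. Log2 fold changes are KO1 minus KO2, each with its standard error (SE) and n = 2 libraries per line, so a positive value means higher in KO1. A gene was called when its Benjamini-Hochberg adjusted p from edgeR's quasi-likelihood test was below 0.05. A lower level in bulk RNA cannot tell fewer cells expressing a gene from less RNA per cell.

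Mettl3 itself (ENSMUSG00000022160.18, chromosome 14, 52294841 to 52305128, minus strand, mm10) was read in every library, at 32.1 and 30.8 CPM in KO1, 22.5 and 21.8 CPM in KO2, and 36.6 and 31.9 CPM in the control. The KO1 libraries lay above both KO2 libraries, and 1 KO1 library lay within the range of the control. The log2 fold change was 0.51 (SE 0.075, edgeR adjusted p = 5.96e-07), or 1.42-fold. Gene-level counts cover the whole gene and do not show whether a targeted exon is missing. Under spike-in scaling the log2 fold change was 0.13 (edgeR adjusted p = 0.139), which ends the call. Mettl3 shares exonic bases with Tox4 on the other strand, whose log2 fold change was 0.47 (SE 0.059, edgeR adjusted p = 2.71e-08), and the median of its chromosome was 0.25, so 0.26 of the difference lay above that median.

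Nearly as many genes were called as were not. Of 20937 tested genes, 10298 (49.2%) were called, with 5392 (25.8%) higher and 4906 (23.4%) lower in KO1. Differences of at least 2-fold numbered 894 higher (4.27%) and 1495 lower (7.14%). The median log2 fold change over all tested genes was -0.01. With scaling to the spike-in RNA in place of TMM, that median was -0.38 and the calls split into 1725 higher and 10609 lower, so that 14% of calls were higher, against 52.4% with TMM; gene reads per spike-in read were 2145 and 2099.8 in KO1, 2791 and 2785 in KO2, and 1828 and 1779.7 in the control. Directions below, between the lines and against the control, are therefore set against the median gene of each library. Levels against the control were not computed under spike-in scaling.

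Depth set how much was called. In the fifth of genes with the lowest counts (means of 6 to 25.2 reads) 19.6% were called. In the fifth with the highest counts (means of at least 1265 reads) 77.5% were. Counts of called list members below stand beside 25.8% higher and 23.4% lower over all genes, and were not matched for depth. Protein-coding genes leaned to KO1, with 4862 higher and 3783 lower of 14891 (median 0.04). These noncoding classes leaned to KO2: 79 higher and 199 lower of 1062 antisense genes (median -0.20), 103 and 158 of 815 lincRNA genes (-0.11), and 6 and 45 of 170 sense intronic genes (-0.37). Not every noncoding class did: long noncoding genes that start at a bidirectional promoter had 13 higher and 8 lower of 85 (median 0.22), and transcribed processed pseudogenes had 24 higher and 10 lower of 95 (median 0.15). Reads outside annotated genes took 36.7% and 36.3% of uniquely placed reads in KO1, 40.4% and 40.4% in KO2, and 39.8% and 40.4% in the control.

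**Figure D1:**
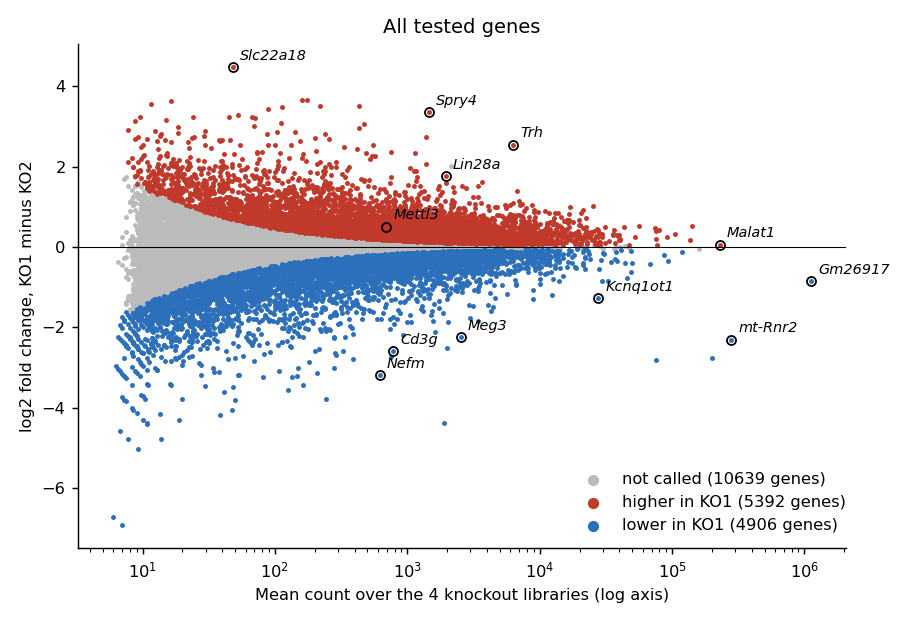
Log2 fold change (KO1 minus KO2, vertical axis) against mean count over the 4 knockout libraries (horizontal log axis) for the 20937 tested genes, with 5392 higher in KO1 in red, 4906 lower in KO1 in blue and the rest in grey. Circled genes are named in the text; small differences were called where counts were high, as for Malat1 at 0.06.

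The control shows which line departed further at each large difference. Of the 894 genes at least 2-fold higher in KO1, the control mean lay between the lines for 562, above both for 269 and below both for 63. Of the 1495 genes at least 2-fold lower in KO1, it lay between for 823, above both for 161 and below both for 511. The control was nearer to KO1 than to KO2 in 69.0% of the genes higher in KO1 and in 69.4% of those lower in KO1.

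The 12 largest differences in favour of KO1, among called genes with at least 50 reads on average and regular names, included an FGF ligand and a feedback inhibitor of its pathway. Fgf17, a secreted FGF ligand, had 29.7 and 29.3 CPM in KO1, 2.44 and 2.79 CPM in KO2, and 9.83 and 10.6 CPM in the control. Spry4, a feedback inhibitor of receptor tyrosine kinase signalling, had 99.03 and 98.3 CPM in KO1, 9.22 and 10 CPM in KO2, and 27.8 and 29.2 CPM in the control. In both genes the control libraries fell between the lines, and no library of a line came near the other line. The log2 fold change was 3.50 for Fgf17 (SE 0.12, edgeR adjusted p = 3.61e-23) and 3.36 for Spry4 (SE 0.066, edgeR adjusted p = 1.95e-30).

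Crb3, an apical polarity protein, had 8.19 and 6.93 CPM in KO1, 0.731 and 0.6198 CPM in KO2, and 6.97 and 5.66 CPM in the control. Misp, a protein that positions the mitotic spindle, had 14.3 and 15.6 CPM in KO1, 1.299 and 1.33 CPM in KO2, and 9.59 and 9.396 CPM in the control. Padi2, an enzyme that converts arginine to citrulline in proteins, had 11.7 and 10.1 CPM in KO1, 0.853 and 0.885 CPM in KO2, and 8.02 and 6.93 CPM in the control. In these 3 genes KO2 was the line far from the control, and KO1 lay near or above it.

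Klk8, a secreted serine protease, had the largest log2 fold change of the group, 3.67 (SE 0.20, edgeR adjusted p = 2.35e-17), with 12.2 and 11.5 CPM in KO1, 1.18 and 0.664 CPM in KO2, and 3.77 and 2.13 CPM in the control. Stra8, needed for entry into meiosis, had 7.06 and 7.83 CPM in KO1, 0.812 and 0.9296 CPM in KO2, and 8.73 and 9.14 CPM in the control. The remaining members were Foxn4 (3.44), Tgm3 (3.29), Bdkrb2 (3.22), Map7d3 (3.20) and Evc (3.07). No gene was on in a single line by the rule of at most 3 reads in each library of 1 line and at least 50 in each of the other.

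Among the 12 largest differences in favour of KO2, KO2 stood apart and KO1 lay nearer to the control. Nefm, the medium neurofilament subunit, had 5.14 and 5.05 CPM in KO1, 46.9 and 46.04 CPM in KO2, and 3.102 and 3.32 CPM in the control. Its log2 fold change was -3.19 (SE 0.091, edgeR adjusted p = 1.36e-25). Ido2, an enzyme of tryptophan breakdown, had 1.77 and 1.75 CPM in KO1, 16.2 and 14.6 CPM in KO2, and 0.621 and 0.6803 CPM in the control. Kng2, a kininogen, had 1.48 and 0.727 CPM in KO1, 11.5 and 13.3 CPM in KO2, and 0.907 and 1.105 CPM in the control.

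Genes of the X chromosome were part of the same group, although Map7d3 (3.20), given above in favour of KO1, is X-linked too. Of 649 tested X genes, 20.2% were higher and 31.4% lower in KO1 (median log2 fold change -0.12). Xlr3a and Xlr3b, near-identical genes of an X-linked multicopy family, had log2 fold changes of -3.55 and -3.20; multiply placed reads enter neither, so each is uncertain on its own. Magea4, a cancer-testis gene of the X chromosome, had 0.514 and 0.342 CPM in KO1, 4.101 and 3.98 CPM in KO2, and 0.286 and 0.8503 CPM in the control. Dgkk, an X-linked diacylglycerol kinase, had 0.642 and 0.641 CPM in KO1, 6.78 and 5.45 CPM in KO2, and 0.668 and 0.468 CPM in the control. The other members were Epha3 (-3.20), Bglap3 (-3.02), Rasgrf2 (-2.85), Nav3 (-2.84) and Vnn1 (-2.78). Rasgrf2, which activates Ras, and Vnn1, a pantetheinase, had control libraries between the lines.

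**Figure D2:**
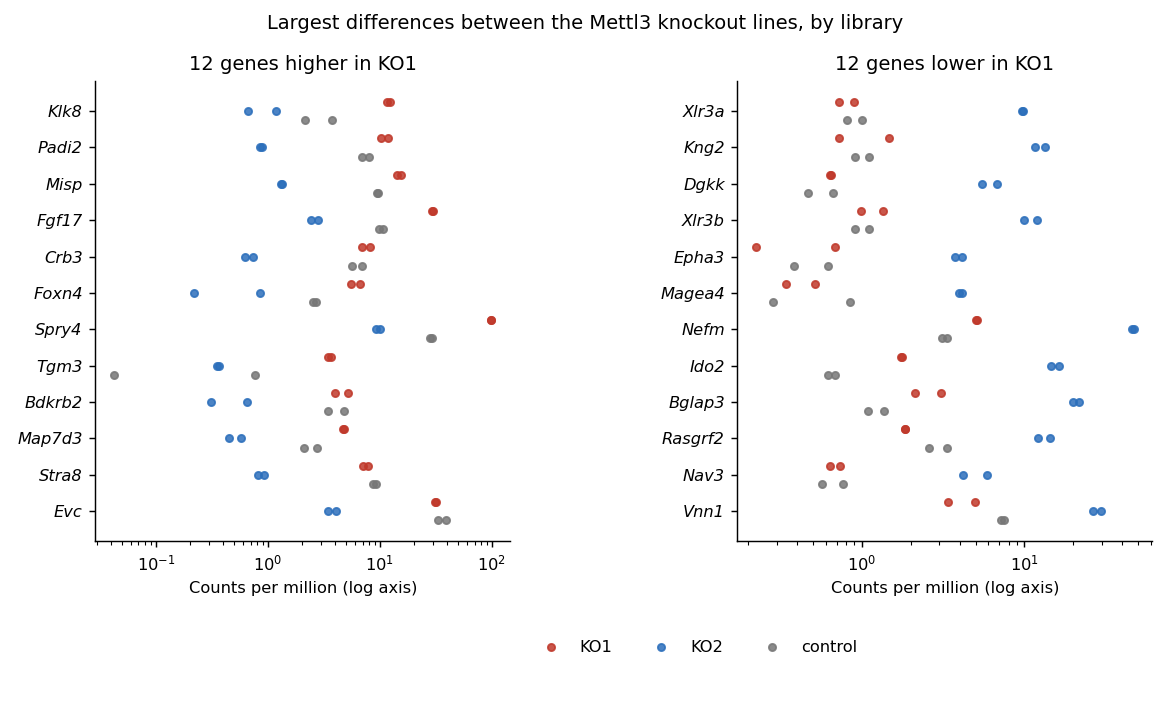
CPM (log axis) of each library for the 12 genes highest and the 12 genes lowest in KO1 relative to KO2, with KO1 in red, KO2 in blue and the control in grey, 2 points per group. The lines do not overlap in any of these genes, which the rule required and which held for 73.0% of all tested genes; control points lie beside KO1 for most genes on the right, as for Nefm.

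Imprinted genes, which are read from only the maternal or the paternal copy, differed in opposite ways from domain to domain. Of 23 tested paternally expressed genes, 2 were higher and 16 lower in KO1 (median log2 fold change -0.88), beside 25.8% higher and 23.4% lower over all genes. Of 14 tested maternally expressed genes, 5 were higher and 6 lower in KO1 (median log2 fold change -0.29). Under spike-in scaling the counts were 1 higher and 17 lower of the paternal list and 4 higher and 8 lower of the maternal list.

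The long transcripts of the Dlk1-Meg3 domain of chromosome 12 were lower in KO1. All 29 tested genes that start between Dlk1 (109452823) and Mir496a (109739119) were lower in KO1. Their log2 fold changes lay between -4.79 and -1.14, with a median of -1.98. Of them, 13 are annotated miRNA hairpins and 6 are snoRNAs, which overlap or neighbour longer transcripts. Many of these short genes, and Gm27596 at -4.79, passed the expression filter (minimum count 10) only through KO2, where they are high. The count of 29 and the range were thus partly fixed by the filter. Meg3, Rian, Mirg, Rtl1, Gm26945, Gm37899 and B830012L14Rik passed it in both lines, with log2 fold changes between -2.23 and -1.57. In all 29 the mean level was lowest in KO1 and highest in the control. Meg3, the maternal long noncoding RNA of the domain (ENSMUSG00000021268.17, chromosome 12, 109541001 to 109571726, plus strand), had 36.7 and 36.7 CPM in KO1, 174 and 170.5 CPM in KO2, and 322 and 309 CPM in the control. Rian, the noncoding host of many snoRNAs, had 63.2 and 57.6 CPM in KO1, 220.5 and 216 CPM in KO2, and 402 and 408 CPM in the control. Mirg, the host of a miRNA cluster, had 14.6 and 12.7 CPM in KO1, 51.4 and 51.97 CPM in KO2, and 93.1 and 93.6 CPM in the control. The KO1 libraries, the KO2 libraries and the control libraries of these 3 genes formed 3 separate levels.

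Paternally expressed members of the domain went the same way as the maternal ones. Rtl1, a retrotransposon-derived gene of the placenta, had 16.7 and 18.6 CPM in KO1, 53.3 and 50.8 CPM in KO2, and 103 and 99.1 CPM in the control. Dlk1, a Notch-related ligand, was read at low levels, 0.7704 and 0.385 CPM in KO1, 2.396 and 1.904 CPM in KO2, and 4.58 and 4.97 CPM in the control. The log2 fold change was -2.23 for Meg3 (SE 0.043, edgeR adjusted p = 1.31e-30), -1.57 for Rtl1 (SE 0.071, edgeR adjusted p = 7.16e-20) and -1.84 for Dlk1 (SE 0.37, edgeR adjusted p = 7.43e-05). Rtl1 and Meg3 share exonic bases with genes of the other strand, so their counts are uncertain without a stated strand setting.

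In the Kcnq1ot1 domain of chromosome 7 the long noncoding RNA and its neighbours Phlda2, Cdkn1c and Slc22a18 moved in opposite directions. Of 11 tested genes that start between Tspan32 and Nap1l4, 5 were higher and 2 lower in KO1. Kcnq1ot1 (ENSMUSG00000101609.2, chromosome 7, 143203458 to 143296549, minus strand) is a paternal nuclear RNA known to silence neighbouring genes in cis. It had 653 and 654 CPM in KO1, 1585 and 1580 CPM in KO2, and 954 and 997 CPM in the control, a log2 fold change of -1.28 (SE 0.02, edgeR adjusted p = 1.70e-33). Phlda2, a maternal inhibitor of placental growth, had 9.502 and 10.3 CPM in KO1, 2.35 and 1.86 CPM in KO2, and 5.06 and 5.102 CPM in the control, a log2 fold change of 2.22 (SE 0.18, edgeR adjusted p = 3.97e-13). Cdkn1c, a maternal cell-cycle inhibitor, had 2.44 and 2.48 CPM in KO1, 0.6497 and 0.531 CPM in KO2, and 1.72 and 1.45 CPM in the control, a log2 fold change of 2.04 (SE 0.34, edgeR adjusted p = 4.60e-06).

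Slc22a18, a maternal transporter gene between them, showed the largest ratio among the tested genes of the domain. It had 105 and 81 reads in KO1, 4 and 3 reads in KO2, and 29 and 39 reads in the control. It passed the expression filter only through KO1, where it is high, so its place among the tested genes depends on that direction. The fitted log2 fold change was 4.48 (SE 0.41, edgeR adjusted p = 1.95e-11). Pooled reads were 186 against 7, a ratio of 23.0 once scaled to library size and TMM factor. Its exact 95% interval of 10.9 to 58.0 covers counting error only. In all 4 genes the control libraries lay between the lines, with KO1 low and KO2 high in Kcnq1ot1 and KO1 high and KO2 low in Phlda2, Cdkn1c and Slc22a18. Flanking genes differed less: Tspan32 by -0.45, Cd81 by 0.08 and Nap1l4 by 0.15. Tssc4 (-0.008), Trpm5 (-0.32) and R74862 (0.41) were not called. Kcnq1, which Kcnq1ot1 crosses on the other strand, was not called at 0.99 (edgeR adjusted p = 0.17), and Kcnq1ot1 and Cdkn1c share exonic bases with genes of the other strand.

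**Figure D3:**
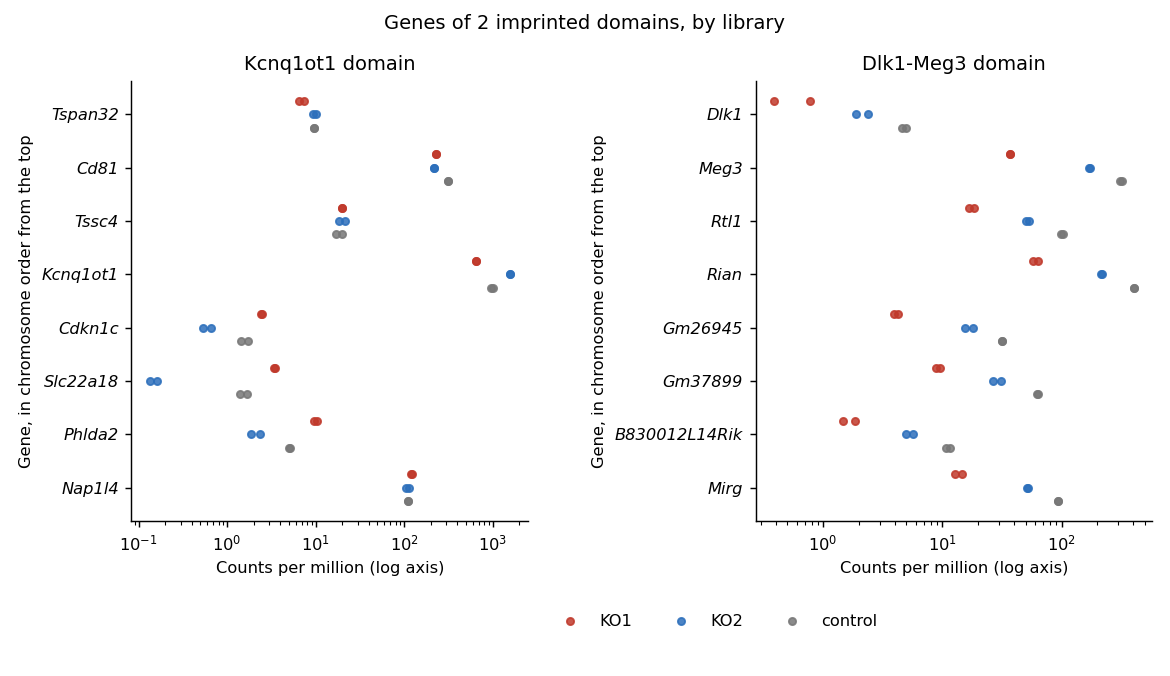
CPM (log axis) of each library for genes of the Kcnq1ot1 domain (left) and the Dlk1-Meg3 domain (right), in chromosome order from the top, with KO1 in red, KO2 in blue and the control in grey, 2 points per group. On the left the order of the lines turns over between Kcnq1ot1 and the 3 genes below it; on the right every gene runs from KO1 (lowest) through KO2 to the control (highest).

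Promoter sequences of the genes on which these domain results turn are shown as RefSeq gives them for GRCm38.p6 (mm10), 300 bases from 250 before to 50 after the start site, 5′ to 3′ on the gene's own strand. CG dinucleotides, the sites of DNA methylation, which was not measured here, are in capitals; a CG reads the same on both strands and no other motif was searched. Cdkn1c is named only.
Kcnq1ot1 (chr7:143296498-143296797, minus strand): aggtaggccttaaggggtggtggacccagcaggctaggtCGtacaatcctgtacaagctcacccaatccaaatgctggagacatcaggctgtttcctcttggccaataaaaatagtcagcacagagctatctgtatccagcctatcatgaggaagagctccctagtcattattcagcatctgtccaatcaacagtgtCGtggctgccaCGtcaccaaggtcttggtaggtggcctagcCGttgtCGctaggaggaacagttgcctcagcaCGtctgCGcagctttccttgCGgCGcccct
Phlda2 (chr7:143502475-143502774, minus strand): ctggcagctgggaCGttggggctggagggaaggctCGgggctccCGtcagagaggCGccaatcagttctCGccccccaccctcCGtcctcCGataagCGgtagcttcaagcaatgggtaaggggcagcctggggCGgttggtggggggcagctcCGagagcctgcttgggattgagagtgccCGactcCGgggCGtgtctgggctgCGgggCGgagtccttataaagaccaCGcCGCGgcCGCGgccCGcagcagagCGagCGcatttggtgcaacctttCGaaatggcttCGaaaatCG
Slc22a18 (chr7:143473539-143473838, plus strand): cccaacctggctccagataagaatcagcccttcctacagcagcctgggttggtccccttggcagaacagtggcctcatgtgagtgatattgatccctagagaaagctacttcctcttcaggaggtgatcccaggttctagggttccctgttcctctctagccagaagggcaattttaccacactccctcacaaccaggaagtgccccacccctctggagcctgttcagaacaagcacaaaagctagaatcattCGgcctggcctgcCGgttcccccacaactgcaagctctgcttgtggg
Meg3 (chr12:109540746-109541045, plus strand): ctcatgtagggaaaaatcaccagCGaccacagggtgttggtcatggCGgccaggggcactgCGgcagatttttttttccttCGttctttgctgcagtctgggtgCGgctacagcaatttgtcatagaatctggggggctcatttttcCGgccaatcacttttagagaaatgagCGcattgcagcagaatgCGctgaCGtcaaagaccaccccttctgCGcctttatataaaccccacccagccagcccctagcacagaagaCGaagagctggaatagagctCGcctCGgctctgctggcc
The windows hold 9 CG in Kcnq1ot1, 26 in Phlda2, 2 in Slc22a18 and 13 in Meg3. Over the 32851 promoters of the table the median was 7, and 45.8%, 16.9%, 85.9% and 37.9% of them hold at least as many as these 4. The genes that were high in KO1 thus include both a promoter rich in CG and one nearly without.

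Other imprinted genes added single differences. H19, a maternal noncoding RNA, had 2.41 and 2.27 CPM in KO1, 11.3 and 10.8 CPM in KO2, and 15.3 and 14.8 CPM in the control. Airn, a paternal RNA that crosses Igf2r, had 0.738 and 1.03 CPM in KO1, 4.39 and 3.896 CPM in KO2, and 1.098 and 0.8503 CPM in the control, with a log2 fold change of -2.25 (SE 0.28, edgeR adjusted p = 1.36e-08), while Igf2r itself was at -0.57 (SE 0.026, edgeR adjusted p = 7.89e-20). Both genes of that pair were thus lower in KO1. Grb10, an adaptor that restrains insulin and growth factor receptors, went the other way with 196 and 189.9 CPM in KO1, 67.7 and 67.02 CPM in KO2, and 45.1 and 46.6 CPM in the control. Mest, a paternal gene of chromosome 6, had 67.6 and 71.9 CPM in KO1, 26.8 and 26.8 CPM in KO2, and 132 and 140 CPM in the control.

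Genes that start back to back can be compared for whether they move together. Among protein-coding and long noncoding genes with at least 50 reads on average, 703 pairs start within 2 kb of each other on opposite strands and point apart. Of the genes in these pairs 61.9% were called, beside 63.6% of the 13044 genes that could enter a pair (36.4% higher and 27.2% lower), so their share of calls was near the background. Both genes were called in 284 pairs (40.4%), the same way in 223 and opposite ways in 61; whether neighbours moved the same way more often than other genes was not tested. Both differed by at least 2-fold in 6 pairs, all 6 in 1 direction within the pair: Hist1h2bh with Hist1h3f, 2610035F20Rik with Zic2, Evc with Evc2, Elmod3 with Retsat and Kirrel2 with Nphs1 were higher in KO1, and Cd3g with Cd3d was lower. Genes of a pair are neighbours and not independent, and the histone genes have near-identical copies.

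Evc and Evc2 encode partner proteins of the primary cilium that act in Hedgehog signalling, and start 1605 bases apart on chromosome 5. Evc had 30.8 and 31.9 CPM in KO1, 4.02 and 3.41 CPM in KO2, and 38.95 and 33.3 CPM in the control. Evc2 had 70.2 and 74.5 CPM in KO1, 15.5 and 12.9 CPM in KO2, and 69.5 and 66.6 CPM in the control. KO1 and the control lay together, and KO2 was low in both genes. The log2 fold change was 3.07 for Evc (SE 0.11, edgeR adjusted p = 1.86e-22) and 2.34 for Evc2 (SE 0.071, edgeR adjusted p = 6.87e-25).

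Cd3g and Cd3d encode subunits of the T cell receptor complex and start 1355 bases apart on chromosome 9. Cd3g had 8.76 and 9.75 CPM in KO1, 55.96 and 54.3 CPM in KO2, and 6.25 and 7.36 CPM in the control. Cd3d had 3.66 and 2.74 CPM in KO1, 21.1 and 19.4 CPM in KO2, and 2.86 and 3.44 CPM in the control. Here too KO1 and the control lay together, and KO2 was high. Cd3e, the third CD3 gene beside them, had 3.08 and 4.02 CPM in KO1, 15.2 and 14.7 CPM in KO2, and 6.44 and 6.76 CPM in the control and a log2 fold change of -2.09 (SE 0.14, edgeR adjusted p = 5.07e-15).

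The promoters of both pairs are shown in the same form, since they differ in their CG content while each pair moved as 1.
Evc (chr5:37336832-37337131, minus strand): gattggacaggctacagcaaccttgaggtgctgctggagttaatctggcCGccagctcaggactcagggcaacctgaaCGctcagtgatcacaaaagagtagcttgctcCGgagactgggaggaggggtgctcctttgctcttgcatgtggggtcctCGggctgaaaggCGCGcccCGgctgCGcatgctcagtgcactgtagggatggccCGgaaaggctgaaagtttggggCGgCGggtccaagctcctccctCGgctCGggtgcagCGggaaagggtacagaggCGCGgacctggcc
Evc2 (chr5:37338228-37338527, plus strand): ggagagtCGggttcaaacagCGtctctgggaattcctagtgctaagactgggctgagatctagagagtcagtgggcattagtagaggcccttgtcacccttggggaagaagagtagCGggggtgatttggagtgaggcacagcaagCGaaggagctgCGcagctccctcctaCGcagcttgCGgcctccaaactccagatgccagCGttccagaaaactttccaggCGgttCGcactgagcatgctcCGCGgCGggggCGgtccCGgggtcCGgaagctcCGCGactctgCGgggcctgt
Cd3d (chr9:44981536-44981835, plus strand): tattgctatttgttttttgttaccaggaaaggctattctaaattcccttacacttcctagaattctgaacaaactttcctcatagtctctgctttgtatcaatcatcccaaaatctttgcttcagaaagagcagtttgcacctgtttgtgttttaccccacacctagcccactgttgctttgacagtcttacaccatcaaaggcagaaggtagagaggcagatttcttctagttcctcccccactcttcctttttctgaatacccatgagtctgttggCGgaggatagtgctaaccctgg
Cd3g (chr9:44980382-44980681, minus strand): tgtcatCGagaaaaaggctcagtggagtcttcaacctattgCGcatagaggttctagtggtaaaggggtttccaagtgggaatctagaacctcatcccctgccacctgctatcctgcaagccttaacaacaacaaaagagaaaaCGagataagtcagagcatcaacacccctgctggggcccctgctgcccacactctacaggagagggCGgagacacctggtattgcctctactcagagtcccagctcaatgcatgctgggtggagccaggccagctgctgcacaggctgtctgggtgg
Evc holds 16 CG and Evc2 19, counts that 33.0% and 28.1% of all promoters reach. Cd3d holds 1 and Cd3g 4, which 94.6% and 68.6% of all promoters reach.

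Genes of the stem cell state leaned to KO1. The pluripotency list held naive factors and also other genes such as Lin28a. Of its 25 tested genes, 21 were higher and 2 lower in KO1 (median log2 fold change 0.47), against 25.8% and 23.4% over all genes. Under spike-in scaling 12 were higher and 8 lower (median 0.09). Nanog, a core factor of self-renewal, had 458 and 446 CPM in KO1, 247 and 243 CPM in KO2, and 399 and 391 CPM in the control. Esrrb, a nuclear receptor of the naive network, had 692 and 676 CPM in KO1, 379 and 382 CPM in KO2, and 496 and 509 CPM in the control. Lin28a, an RNA-binding protein that blocks let-7 maturation, had 116 and 111 CPM in KO1, 33.9 and 33.2 CPM in KO2, and 69.8 and 63.7 CPM in the control. With TMM scaling, KO1 was above and KO2 below the control in these 3 genes.

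The log2 fold change was 0.88 for Nanog (SE 0.027, edgeR adjusted p = 6.16e-25), 0.85 for Esrrb (SE 0.024, edgeR adjusted p = 7.10e-26) and 1.76 for Lin28a (SE 0.05, edgeR adjusted p = 9.99e-26). Zfp42 was also higher in KO1, at 0.87. Klf2, a naive factor with the same known role, went the other way: 59.3 and 58.5 CPM in KO1, 99.6 and 102 CPM in KO2, and 119 and 122 CPM in the control. Of the 25 genes, 7 lie on chromosomes 4, 6, 14 and 17, whose medians are described below, and 5 of the 21 higher calls were there.

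Genes of the formative and primed states that follow naive pluripotency also leaned to KO1. Of 16 tested, 10 were higher and 1 lower in KO1 (median log2 fold change 0.72); under spike-in scaling 10 were higher and 3 lower (median 0.35). Lefty2, a secreted Nodal antagonist, had 452 and 448 CPM in KO1, 267 and 265 CPM in KO2, and 111 and 116 CPM in the control. Etv4, an ETS factor downstream of FGF, had 26.8 and 27.1 CPM in KO1, 8.65 and 8.59 CPM in KO2, and 24.1 and 25.2 CPM in the control. Zic2, a zinc finger factor of the primed state, had 41.7 and 40.2 CPM in KO1, 20.6 and 19.7 CPM in KO2, and 40.9 and 36.7 CPM in the control. Cdh2, N-cadherin, was the lower call at -0.995.

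FGF-ERK target genes leaned to KO1 as well. MEK, the kinase that activates ERK, is inhibited in the medium of both lines. Of 16 tested targets, 9 were higher and 1 lower in KO1 (median log2 fold change 0.67), beside 25.8% and 23.4% over all genes. Under spike-in scaling 9 targets were higher and 5 lower (median 0.29). Myc, a transcription factor of growth, had 33.03 and 34.4 CPM in KO1, 7.15 and 6.95 CPM in KO2, and 7.02 and 7.65 CPM in the control. Spry2, a paralogue of Spry4, had 73.8 and 69.5 CPM in KO1, 32.1 and 29.7 CPM in KO2, and 70.6 and 65.5 CPM in the control. Dusp6, an ERK phosphatase, had 16.7 and 14.9 CPM in KO1, 3.45 and 4.56 CPM in KO2, and 10.4 and 9.82 CPM in the control. Etv5 was higher by 0.64. In Myc, KO2 and the control lay together and KO1 apart, whereas in Spry2 KO1 and the control lay together and KO2 apart. Dusp5 was the lower call, at -0.52 (edgeR adjusted p = 0.00808), and Spry1 was not called at 0.20 (edgeR adjusted p = 0.19).

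Targets of other signalling pathways were mixed. Of 18 tested WNT targets, 1 was higher and 8 lower in KO1 (median log2 fold change -0.44), beside 25.8% and 23.4% over all genes. Under spike-in scaling 1 was higher and 15 lower (median -0.81). The medium contains the GSK3 inhibitor that activates this pathway. Axin2, a feedback inhibitor of WNT, had 48.6 and 46.5 CPM in KO1, 60.95 and 61.05 CPM in KO2, and 16.3 and 16.2 CPM in the control, so both lines were above the control. Znrf3, Tnfrsf19 and Kremen1 were lower in KO1, at -0.66, -1.03 and -0.86, and Cdx1 was the higher call with 65.2 and 59.4 CPM in KO1, 28.9 and 31.1 CPM in KO2, and 8.59 and 7.99 CPM in the control. Of 15 tested TGF-beta and BMP targets, 8 were higher and 4 lower in KO1 (median log2 fold change 0.74); under spike-in scaling 6 were higher and 6 lower (median 0.37). Bmp4, a ligand of that pathway, had 13.8 and 13.8 CPM in KO1, 3.69 and 4.21 CPM in KO2, and 12.9 and 14.4 CPM in the control. Smad7, an inhibitor of the pathway, was higher at 0.80. Of 13 tested Notch genes, 4 were higher and 4 lower in KO1 (median log2 fold change 0.10), near the 25.8% and 23.4% over all genes, and 2 higher and 6 lower under spike-in scaling (median -0.27), with Notch1 at -0.64, Notch2 at -0.36, Notch4 at 0.73 and Hes1 at 0.86.

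Glycolytic genes were higher in KO1 nearly throughout. Of 20 tested genes of glycolysis and hypoxia, 16 were higher and 2 lower in KO1 (median log2 fold change 0.66), with 8 at least 2-fold higher. Over all genes 25.8% were higher and 23.4% lower. Under spike-in scaling 12 of the list were higher and 3 lower (median 0.28). Ldha, lactate dehydrogenase, had 373 and 369 CPM in KO1, 146 and 138 CPM in KO2, and 252 and 235 CPM in the control. Pfkl, phosphofructokinase, had 149 and 144 CPM in KO1, 52.3 and 49.01 CPM in KO2, and 83.8 and 72.4 CPM in the control. Eno1, enolase, had 879.5 and 857 CPM in KO1, 437 and 429 CPM in KO2, and 609 and 567 CPM in the control. Hk2, hexokinase, had 381 and 387 CPM in KO1, 178 and 185 CPM in KO2, and 439 and 407 CPM in the control. With TMM scaling, KO1 was above the control in Ldha, Pfkl and Eno1, and KO2 was below it in all 4.

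The log2 fold change was 1.39 for Ldha (SE 0.031, edgeR adjusted p = 7.86e-29), 1.53 for Pfkl (SE 0.044, edgeR adjusted p = 1.44e-25) and 1.08 for Hk2 (SE 0.029, edgeR adjusted p = 1.66e-26). Vegfa, a hypoxia target that is no glycolytic enzyme, went the other way with 38.4 and 36.01 CPM in KO1, 80.5 and 74.5 CPM in KO2, and 60 and 55.5 CPM in the control. Of the 20 genes, 7 lie on chromosomes 4, 6, 14 and 17, and these hold 5 of the 16 higher calls.

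Of 20 tested genes of the ATF4 response, 7 were higher and 11 lower in KO1 (median log2 fold change -0.30). Under spike-in scaling 1 was higher and 14 lower (median -0.67). Beside this list and the next ones, 25.8% of all genes were higher and 23.4% lower. Higher calls included Mthfd2, an enzyme of folate metabolism, at 0.83 and Asns, asparagine synthetase, at 0.29. The largest lower calls were Chac1, which degrades glutathione, at -1.80, and the transcription factors Atf3 and Ddit3 at -1.48 and -0.96; the amino acid transporter genes Slc7a5 and Slc3a2 were lower at -0.43 and -0.36. Of 20 tested p53 targets, 4 were higher and 8 lower in KO1 (median log2 fold change -0.09), or 1 higher and 17 lower under spike-in scaling (median -0.47), with Pmaip1 at 1.14, Aen at -0.54, Trp53inp1 at 0.27 and Plk2 at -0.48. Of 15 tested chaperone genes, 9 were higher and 2 lower in KO1 (median log2 fold change 0.18), and Hsp90ab1, Hspa8, Hspe1 and Hsp90aa1 were higher at 0.53, 0.48, 0.55 and 0.31; under spike-in scaling 5 were higher and 10 lower (median -0.20), and Asns, Trp53inp1 and Hsp90aa1 change sign. Of 11 tested interferon genes, 3 were higher and 1 lower in KO1 (median log2 fold change 0.10), or 2 higher and 4 lower under spike-in scaling (median -0.27), with Eif2ak2, a sensor of double-stranded RNA, at 1.35 and Ddx58, another such sensor, at 1.18; Irf7 (-0.55) and Irf1 (0.26) were called with adjusted p of 0.02 and 0.0429 by edgeR. Neither call held in the DESeq2 Wald test (adjusted p of 0.105 for Irf7 and 0.114 for Irf1). Without KO1 replicate 2 the edgeR adjusted p was 0.152 for Irf7 and 0.0885 for Irf1; Irf7 was at 0.218 without KO2 replicate 1, and Irf1 at 0.0592 without KO1 replicate 1 and 0.412 without KO2 replicate 2. Irf1 is at -0.12 under spike-in scaling.

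**Figure D4:**
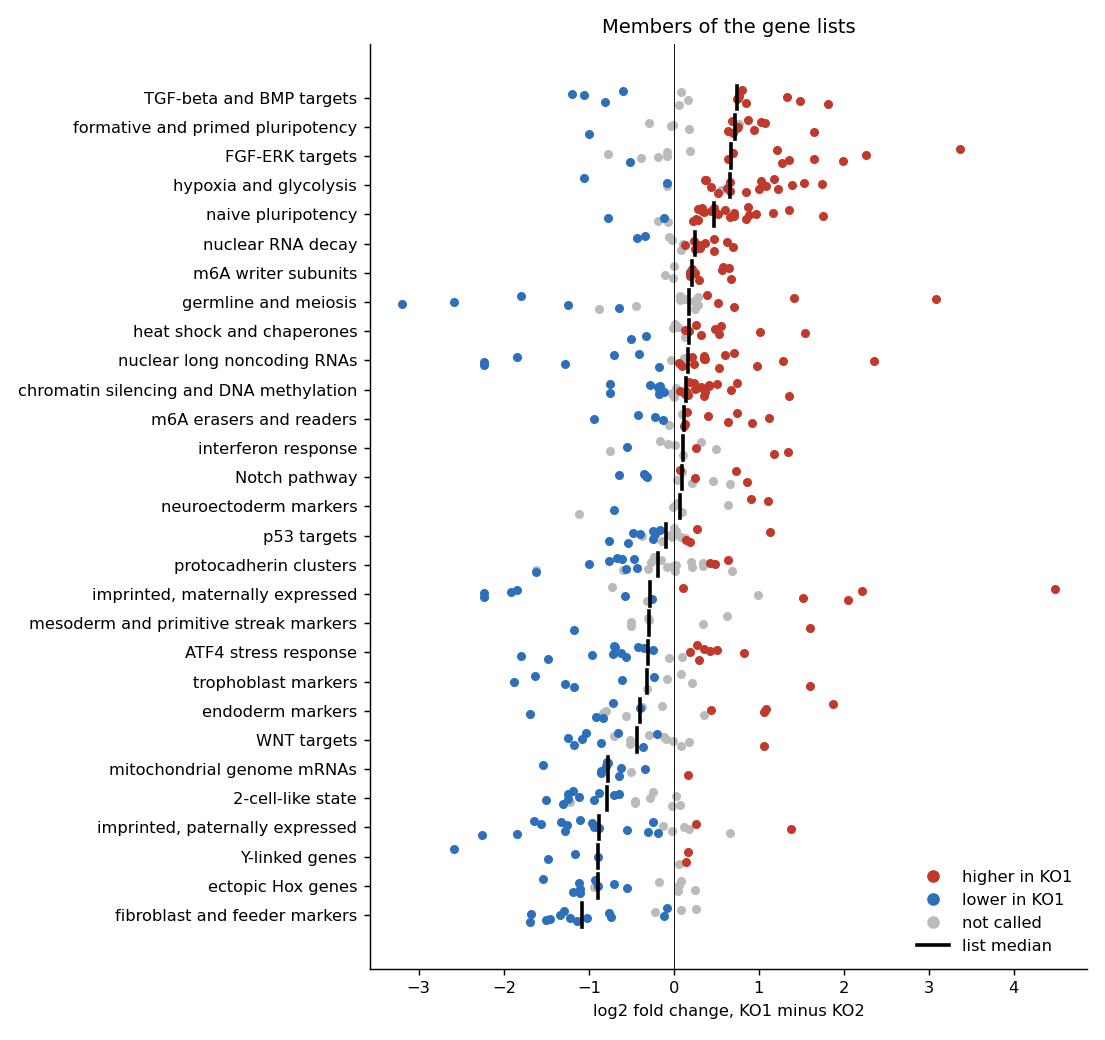
Log2 fold change (KO1 minus KO2, horizontal axis) of each tested member of the 29 gene lists, 1 row per list, with genes higher in KO1 in red, lower in blue, not called in grey, and the list median as a black bar. Medians run from 0.74 (TGF-beta and BMP targets) to -1.08 (fibroblast and feeder markers), beside -0.01 over all genes.

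Fibroblast and feeder markers were mostly lower in KO1, opposite to most stem cell genes. Of 16 tested fibroblast and feeder genes, 0 were higher and 13 lower in KO1 (median log2 fold change -1.08); Lum and Dcn were not tested for low counts. The summed level of the list was 5308 and 5340 CPM in KO1, 6544 and 6704 CPM in KO2, and 3574 and 3603 CPM in the control, and Fn1 makes up most of it. Col1a1, a fibrillar collagen, had 95.02 and 94.8 CPM in KO1, 267 and 271 CPM in KO2, and 105 and 101 CPM in the control. Acta2, smooth muscle actin, had 28.2 and 29.9 CPM in KO1, 91.2 and 96.6 CPM in KO2, and 16.8 and 16.2 CPM in the control. Col1a2 and Thbs1 were lower in KO1 by similar amounts, -1.46 and -1.29, whereas Thy1, a surface marker of fibroblasts, had 2.38 and 3.29 CPM in KO1, 2.48 and 2.83 CPM in KO2, and 2.15 and 1.62 CPM in the control and was not called (edgeR adjusted p = 0.816). The part of these transcripts in the results on pluripotency and glycolysis was not tested.

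Germ layer and trophoblast markers were called in both directions, beside 25.8% higher and 23.4% lower over all genes. Of 15 tested endoderm markers, 4 were higher and 5 lower in KO1 (median log2 fold change -0.40), or 2 higher and 7 lower under spike-in scaling (median -0.78): the basement membrane genes Sparc, Col4a1 and Lamc1 were lower at -0.71, -0.83 and -0.40, and Lamb1 was higher at 1.09. Gata6 and Sox17, factors that define primitive endoderm, were not called, at -0.80 (edgeR adjusted p = 0.173) and -0.14 (edgeR adjusted p = 0.849). Of 8 tested mesoderm markers, 1 was higher and 1 lower in KO1 (median log2 fold change -0.30), or 1 higher and 4 lower under spike-in scaling (median -0.67); Eomes, a T-box factor of the streak and the trophoblast, had 19.7 and 20.2 CPM in KO1, 6.25 and 6.95 CPM in KO2, and 7.59 and 8.55 CPM in the control, and Cdx2 was lower at -1.18. Of 8 tested neuroectoderm markers, 2 were higher and 1 lower in KO1 (median log2 fold change 0.07), or 2 higher and 3 lower under spike-in scaling (median -0.30), with Stmn2 at 1.11, Tubb3 at 0.90 and Nes at -0.71. Of 11 tested trophoblast markers, 1 was higher and 6 lower in KO1 (median log2 fold change -0.31), or 1 higher and 7 lower under spike-in scaling (median -0.69), with Gata3 at -1.88, Tfap2a at -1.63 and Krt18 at -0.61.

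Among genes of the 2-cell-like state, a rare embryo-like state of stem cells, mainly the Zscan4 and Usp17l families were lower in KO1. Of 18 tested genes, 0 were higher and 10 lower in KO1 (median log2 fold change -0.79), beside 25.8% and 23.4% over all genes. All lower calls except Sp110 were members of these families. Other listed genes were not called: Duxf3 (0.08), Zfp352 (0.03), Arg2 (-0.02), Tmem92 (-0.46), Tcstv1 (-0.46) and Tcstv3 (-1.22). Sp110 had 2.02 and 1.75 CPM in KO1, 5.198 and 4.16 CPM in KO2, and 4.25 and 3.78 CPM in the control. The Zscan4 and Usp17l genes are near-identical copies measured on their unique parts, so single members are uncertain; Zscan4d was at -0.88, Usp17le at -1.12 and Usp17lb at -1.50. The summed level was 26.6 and 28.2 CPM in KO1, 49.9 and 46.7 CPM in KO2, and 71.7 and 74.0 CPM in the control. With TMM scaling both lines were thus below the control, which was not checked under spike-in scaling.

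Hox genes and clustered protocadherins were low in all libraries. Of 15 tested Hox genes, 0 were higher and 9 lower in KO1 (median log2 fold change -0.89), beside 25.8% and 23.4% over all genes. Hoxb9 was at -0.89, Hoxd8 at -0.92, Hoxc9 at -1.11 and Hoxd9 at -1.54. The sum that follows is over the tested Hox genes. Their summed level was 37.0 and 36.5 CPM in KO1, 53.03 and 52.4 CPM in KO2, and 38.8 and 38.1 CPM in the control. Of 26 tested protocadherins, 3 were higher and 8 lower in KO1 (median log2 fold change -0.19), or 0 higher and 14 lower under spike-in scaling (median -0.57), with Pcdhga8 at -1.003, Pcdhgb5 at -0.76, Pcdhgc4 at -0.67 and Pcdhga12 at -0.43; members share exons, so reads split between them.

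Of 20 tested germline genes, 5 were higher and 5 lower in KO1 (median log2 fold change 0.18), near the 25.8% and 23.4% over all genes; under spike-in scaling 2 were higher and 7 lower (median -0.19). Rhox5, an X-linked homeobox gene of the germline, had 4.398 and 3.21 CPM in KO1, 22.7 and 23.9 CPM in KO2, and 2.91 and 3.78 CPM in the control. Hormad1, a protein of the meiotic chromosome axis, had 12.5 and 14.5 CPM in KO1, 30.9 and 32.98 CPM in KO2, and 20.6 and 22.8 CPM in the control. Both were lower in KO1, while Stra8, given above, was higher.

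Of 7 tested genes of a list of Y-linked genes, 2 were higher and 4 lower in KO1 (median log2 fold change -0.89). Under spike-in scaling 0 of the list were higher and 7 lower (median -1.27). Of all 13 tested genes of the Y chromosome, 2 were higher and 6 lower in KO1 (median log2 fold change -0.79). Zfy1, a Y-linked zinc finger gene with a near-identical copy, had 2.696 and 1.97 CPM in KO1, 14.5 and 13.99 CPM in KO2, and 0.4296 and 0.808 CPM in the control. Kdm5d, a histone demethylase, had 5.26 and 4.53 CPM in KO1, 13.7 and 13.9 CPM in KO2, and 0.334 and 0.595 CPM in the control. Uba1y was lower too, at -0.89. Ddx3y, an RNA helicase, had 109.9 and 116 CPM in KO1, 106 and 110.1 CPM in KO2, and 35.3 and 35.8 CPM in the control, and Uty was at 0.16, or -0.21 under spike-in scaling. The lines were thus close in Ddx3y, where both lay above the control.

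The m6A machinery other than Mettl3 leaned slightly to KO1. Of 13 tested writer genes, 10 were higher and 0 lower in KO1 (median log2 fold change 0.21), beside 25.8% and 23.4% over all genes. Calls rise with depth, to 77.5% in the fifth of genes with the most reads. Under spike-in scaling 3 writer genes were higher and 8 lower (median -0.17). Wtap, the adaptor of the writer complex, had 197 and 191 CPM in KO1, 128 and 121 CPM in KO2, and 149 and 163 CPM in the control. Zc3h13, which holds the complex in the nucleus, had 369 and 361 CPM in KO1, 251 and 239 CPM in KO2, and 367 and 359 CPM in the control. Mat2a, which makes the methyl donor, had 432 and 421 CPM in KO1, 263 and 272 CPM in KO2, and 395 and 418 CPM in the control. Rbm15, which recruits the complex to RNA, was at 0.25, and at -0.13 under spike-in scaling. Mettl14, the direct partner of METTL3, was not called, with 33.3 and 34.2 CPM in KO1, 32.97 and 34.9 CPM in KO2, and 30.6 and 30.8 CPM in the control (edgeR adjusted p = 0.92). The 3 genes with the largest differences lie on chromosomes 17, 14 and 6, whose genes leaned the same way.

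Readers and erasers of m6A moved in both directions. Of 14 tested, 8 were higher and 4 lower in KO1 (median log2 fold change 0.12), beside 25.8% and 23.4% over all genes. Igf2bp3 and Igf2bp2, paralogous readers, went opposite ways: Igf2bp3 had 120.4 and 114 CPM in KO1, 55.5 and 52.6 CPM in KO2, and 85.96 and 93.7 CPM in the control and Igf2bp2 had 41.8 and 43.2 CPM in KO1, 78.8 and 83.5 CPM in KO2, and 23.5 and 25.6 CPM in the control. Ythdc1, the nuclear reader, was higher at 0.40, and Hnrnpa2b1 and Hnrnpc were higher at 0.92 and 0.64. Of 17 tested genes of nuclear RNA decay, 11 were higher and 2 lower in KO1 (median log2 fold change 0.24), with Dis3, an exosome nuclease, at 0.47, Mpp6 at 0.63, and Xrn2 and Zfc3h1 lower at -0.43 and -0.34. Under spike-in scaling 4 readers and erasers were higher and 9 lower (median -0.25), and 2 decay genes were higher and 9 lower (median -0.13).

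Of 30 tested genes of chromatin silencing and DNA methylation, 16 were higher and 8 lower in KO1 (median log2 fold change 0.14). Over all genes 25.8% were higher and 23.4% lower, and 77.5% were called in the fifth with the most reads. Under spike-in scaling 4 of the list were higher and 20 lower (median -0.24). Uhrf1, which guides maintenance methylation, had 704 and 694 CPM in KO1, 412 and 420.4 CPM in KO2, and 583 and 566 CPM in the control. Cbx3, a heterochromatin protein, had 97.5 and 103 CPM in KO1, 39.8 and 38.2 CPM in KO2, and 89.8 and 88.05 CPM in the control. Tet1 and Tet2, which oxidise methylated cytosine, were higher at 0.42 and 0.50, while Tet3 was lower at -0.75. Dnmt3b, a de novo methyltransferase, had 91.8 and 94.7 CPM in KO1, 157 and 156 CPM in KO2, and 71.4 and 69.6 CPM in the control, so KO2 was above both KO1 and the control.

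Among 22 tested long noncoding RNAs of the nucleus, 13 were higher and 7 lower in KO1 (median log2 fold change 0.16); under spike-in scaling 6 were higher and 13 lower (median -0.21). Beside the imprinted ones, Mir17hg, the host of a miRNA cluster, had 97.8 and 91.8 CPM in KO1, 39.7 and 38.2 CPM in KO2, and 62.5 and 68.3 CPM in the control. Neat1, the scaffold of paraspeckles, was not called, with 553 and 549 CPM in KO1, 559 and 574 CPM in KO2, and 597 and 593 CPM in the control (edgeR adjusted p = 0.166). Malat1, the most abundant called RNA on the KO1 side, had 9187 and 9235 CPM in KO1, 8889 and 8760 CPM in KO2, and 13470 and 13390 CPM in the control; its log2 fold change of 0.06 turns to -0.31 under spike-in scaling and was not called with TMM factors from protein-coding nuclear genes (edgeR adjusted p = 0.257). Trh, the precursor of thyrotropin-releasing hormone, was picked out after its values were seen, for its size at high counts: it had 404 and 402 CPM in KO1, 69.4 and 68.6 CPM in KO2, and 69.1 and 66.8 CPM in the control, a log2 fold change of 2.55 (SE 0.032, edgeR adjusted p = 1.90e-36), with KO2 and the control together.

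The 5 most abundant RNAs called lower in KO1 were Gm26917, mt-Rnr2, Gm23935, Fn1 and Dst. Gm26917, an annotated long noncoding RNA of chromosome 17, took 3.21% and 3.20% of gene reads in KO1, 5.73% and 5.72% in KO2, and 4.62% and 4.16% in the control. The mitochondrial ribosomal RNAs mt-Rnr2 and mt-Rnr1 had 3834 and 3993 CPM in KO1, 19370 and 19210 CPM in KO2, and 3154 and 3486 CPM in the control, and 760.2 and 809 CPM in KO1, 5475 and 5486 CPM in KO2, and 681 and 726 CPM in the control. Of 11 tested mitochondrial mRNAs, 1 was higher and 9 lower in KO1 (median log2 fold change -0.77). mt-Cytb, a subunit of complex III, had 852 and 833 CPM in KO1, 1509 and 1542 CPM in KO2, and 602 and 695 CPM in the control, and mt-Nd4, mt-Nd2 and mt-Nd1 of complex I were at -0.79, -0.62 and -0.34. The 1 higher call was mt-Co1, at 0.17, which turns to -0.21 under spike-in scaling and was not called against a 1.2-fold change. With the control libraries added to the fit (6 libraries), mt-Co1 and mt-Nd1 were not called (edgeR adjusted p of 0.279 and 0.079). Mitochondrial genes took 1.502% and 1.503% of gene reads in KO1, 3.68% and 3.68% in KO2, and 0.958% and 1.09% in the control. How much non-nuclear RNA each nuclear fraction held was not tested. How fully ribosomal RNA was removed from each library, and how far that enters the levels of Gm26917, mt-Rnr1 and mt-Rnr2, was not tested either.

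Differences were uneven along the genome. The median log2 fold change was 0.31 over 1074 genes of chromosome 6, 0.25 over 712 genes of chromosome 14, 0.22 over 964 genes of chromosome 17 and 0.16 over 1239 genes of chromosome 4, beside -0.01 over all genes; these 4 chromosomes were picked out after their medians were seen. On chromosome 6, 43.6% of genes were higher and 10.7% lower. Medians of the other autosomes lay between -0.12 and 0.11. The 4 pairings of a KO1 with a KO2 library gave medians of 0.27 to 0.28 on chromosome 6 (0.15 to 0.16 on chromosome 4, 0.22 to 0.24 on chromosome 14, 0.18 to 0.21 on chromosome 17).

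The control separates the lines on these chromosomes. On chromosome 6 the median against the control was -0.06 in KO1 and -0.40 in KO2; on chromosome 14 it was 0.07 in KO1 and -0.21 in KO2, on chromosome 17 it was 0.04 in KO1 and -0.19 in KO2, and on chromosome 4 it was 0.05 in KO1 and -0.16 in KO2. On chromosome 8 both lines were below the control, at -0.53 in KO1 and -0.42 in KO2. The values of the lines share the control libraries. DNA copy number was not measured.

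Within these chromosomes the shift was spread over many windows. Of 267 windows of 10 Mb with at least 10 tested genes, 36 had a median above 0.2, and 10 of 15 windows of chromosome 6, 7 of 12 of chromosome 14, 6 of 9 of chromosome 17 and 6 of 16 of chromosome 4 were among them. The window with the highest median, 0.68, spans 40 to 50 Mb of chromosome 6. There, Igf2bp3 is given above; Ssbp1, a mitochondrial DNA-binding protein, had 103 and 99.9 CPM in KO1, 46.2 and 45.7 CPM in KO2, and 76.4 and 78.95 CPM in the control; Tra2a, a splicing factor, had 234 and 233 CPM in KO1, 135 and 133 CPM in KO2, and 233 and 236 CPM in the control; and Pdia4, an enzyme of protein folding, had 809 and 819 CPM in KO1, 468 and 460.2 CPM in KO2, and 626 and 654 CPM in the control. In these 3 genes KO2 was the lower line and lay below the control. The lowest window was the mitochondrial genome, at -0.77.

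**Figure D5:**
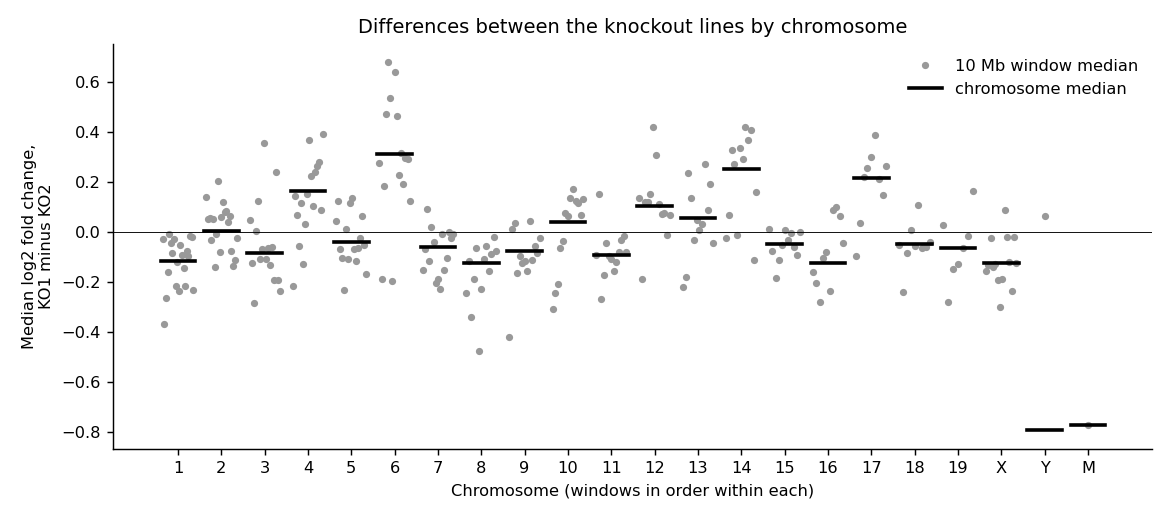
Median log2 fold change (KO1 minus KO2, vertical axis) of each 10 Mb window with at least 10 tested genes (grey points, in order within each chromosome) and of each chromosome (black bars). Chromosomes 4, 6, 14 and 17 sit above 0 in most of their windows, as do others such as chromosome 12 (10 of 12 windows). The median of chromosome 6 is 0.31, and the mitochondrial genome (M) sits at -0.77.

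Of the 20937 tested genes, 3989 lie on chromosomes 4, 6, 14 and 17, and these genes were 30.7% of higher calls. Without them, 3723 genes were higher and 4372 lower among 16948, with a median of -0.05. Large differences were found on both kinds of chromosome: Fgf17, Padi2, Crb3 and Stra8 lie on chromosomes 14, 4, 17 and 6, while Klk8, Misp, Spry4 and Evc lie on others.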

How the data were processed

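Total RNA of the nuclear fraction was sequenced by the authors after addition of 0.1 µl of ERCC spike-in RNA, removal of ribosomal RNA with RiboMinus and preparation with a stranded total RNA kit (SMARTer v2), per the labels' protocols. The counts of reads per gene that the authors deposited are raw, without normalization; the submitters' processing notes name CASAVA, Trimmomatic 0.38, HISAT2 2.1.0, HTSeq and the mm10 genome. The sources used here give neither the strand setting of the counting nor the gene model release. Multiply placed reads entered no gene, so near-identical genes were measured on their unique parts.

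The 54446 genes of the table matched its single-library files, with 0 cells differing; symbols and positions came from GENCODE M21 (54409 identifiers found). The 4 knockout libraries were fitted with edgeR 4.0.16 (TMM, minimum count 10, robust quasi-likelihood F test, Benjamini-Hochberg over all tested genes, two-sided), after a check on simulated data. Replicates of a line differed beyond sampling noise (chi-square per degree of freedom 2.99 in KO1 and 2.20 in KO2) and counted as 2 samples. Named genes were Mettl3, the 12 highest and 12 lowest called genes with regular symbols and at least 50 reads, the 5 most abundant called genes each way, and, ranked by p, at most 4 called genes of every list and of the windows with the highest and lowest medians; other genes named were chosen after their values were seen, and 1 gene of the rule is not reported here. Members and lists were chosen with earlier results of these data known. Alternatives were other scalings, DESeq2 1.42.0, other filters, a test against 1.2-fold, a replicate block, 6 libraries in 1 fit, and each library left out; leaving out chromosomes 4, 6, 14 and 17, or genes sharing exons with the other strand, was added after seeing the data.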

Additional observations from a re-analysis of the deposited data

Results flagged for a closer look

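In 9 of the 24 genes with the largest differences, the lines lay on opposite sides of the control. Both libraries of 1 line were above both control libraries and both of the other were below. By mean level, the control lay between the lines in 562 of the 894 genes at least 2-fold higher in KO1. It did so in 823 of the 1495 genes at least 2-fold lower. The share of all tested genes that meet the rule on libraries was not counted, so the 9 are not shown to be unusual. The difference between the lines is the one tested by edgeR in the 4 knockout libraries, while the values against the control come from a fit of 6 libraries, and both lines share the control libraries there. KO1 was above the control and KO2 below it in 7 of the 9 genes.
Klk8 had a log2 fold change of 3.67 between the lines, with 2.04 in KO1 and -1.63 in KO2 against the control. For Padi2 the value was 3.65, from 0.58 in KO1 and -3.08 in KO2 against the control. The lines differed by 3.50 in Misp, where KO1 was at 0.67 and KO2 at -2.83 against the control. Fgf17 had a log2 fold change of 3.50 between the lines, with 1.55 in KO1 and -1.96 in KO2 against the control. For Foxn4 the value was 3.44, from 1.24 in KO1 and -2.21 in KO2 against the control. The lines differed by 3.36 in Spry4, where KO1 was at 1.81 and KO2 at -1.55 against the control. Map7d3 had a log2 fold change of 3.20 between the lines, with 0.98 in KO1 and -2.22 in KO2 against the control. 

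KO1 was below the control and KO2 above it in the other 2 genes. Rasgrf2 had a log2 fold change of -2.85 between the lines, with -0.68 in KO1 and 2.17 in KO2 against the control. For Vnn1 the value was -2.78, from -0.82 in KO1 and 1.96 in KO2 against the control.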

How the results depend on the processing

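Named genes kept direction and call in most settings: of 140 named genes other than Mettl3, 140 did so with DESeq2 size factors, with library size alone and with a replicate block, 138 in the DESeq2 Wald test and 129 with spike-in scaling. Spike-in scaling gave 1725 genes higher and 10609 lower, Mettl3 at 0.13 (edgeR adjusted p = 0.139), and turned Malat1 to -0.31, mt-Co1 to -0.21, Hsp90aa1 to -0.061, Eef1a1 to -0.12, Rbm15 to -0.13, Trp53inp1 to -0.11, Asns to -0.085, Irf1 to -0.12 and Uty to -0.21. It also ended the calls of Dis3 and Tet1, at 0.098 and 0.041. A test against a 1.2-fold change called 5839 genes, 2922 higher and 2917 lower. With at least 50 counts in 2 libraries, 1271 genes passed at 2-fold, since fewer genes (14662) were tested. Leaving out 1 library gave 8557 to 9533 calls, 4757 to 5180 higher, 3800 to 4353 lower, 1991 to 2370 at 2-fold, and Mettl3 between 0.48 and 0.55; the lone library of a line was then assumed to vary like the other line. Irf1 was not called in 8 settings and Irf7 in 4. Gm23935 lost its call without KO1 replicate 1, KO1 replicate 2 or KO2 replicate 1 (edgeR adjusted p of 0.0996, 0.0946 and 0.0620).

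Replicate numbers of the lines share only a number: the correlation of the replicate 1 minus 2 differences across 14304 genes was 0.012. With the replicate block, 10139 genes were called, 5330 higher and 4809 lower, 2320 at 2-fold, and Mettl3 was at 0.51. The DESeq2 Wald test called 4647 higher and 3467 lower. Without the 5737 tested genes that share exonic bases with the other strand (27.4%), 3816 were higher and 3575 lower. Depth limits low genes: 19.6% of the fifth with the fewest reads was called.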
